A study of Rattus norvegicus with 9 samples.

Results

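The Sec14-like lipid transfer family was followed in an RNA-Seq study of rat dorsal root ganglia (DRGs), where the sensory neurons of the hind limb have their cell bodies. The family was taken as the 5 genes Sec14l1, Sec14l2, Sec14l3, Sec14l4 and Sec14l5, of 20413 genes in the deposited table, matched by gene symbol. Sec14l3 was chosen by its FPKM values in the CPIP+EA and CPIP groups, for its rise between them, so its differences between groups are given as a description with no test, and the other members were taken as its relatives. All 9 libraries came from male Sprague-Dawley rats of 8 to 10 weeks, and each held RNA of the right (ipsilateral) L4-6 DRGs collected on day 10. The Sham group, labelled control in the deposit, had the anesthesia and a cut O-ring around the ankle that left the blood flow open. The CPIP group had chronic post-ischemia pain, a model of complex regional pain syndrome in which a tight O-ring stops the blood flow of the hind paw and is then removed. The CPIP+EA group had the same ischemia and reperfusion, and then electroacupuncture at 100 Hz once daily for 10 days at the ST36 and BL60 points of both hind limbs. Each group had 3 libraries, made from 3 rats. The study's methods describe no needles without current for the other groups, so needling, handling and current cannot be told apart.

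Sec14-like proteins carry a CRAL-TRIO domain, a pocket that closes over 1 lipid molecule, named after the cellular retinaldehyde-binding protein, the Trio protein and the yeast phosphatidylinositol transfer protein Sec14. Most also carry a GOLD domain, which is found in proteins of the secretory pathway. Sec14l2, also called supernatant protein factor and tocopherol-associated protein, binds squalene and vitamin E and speeds the squalene monooxygenase step of cholesterol synthesis in the test tube. Sec14l3 and Sec14l4 are its close relatives, and rat Sec14l3 was first described in the olfactory mucosa. Sec14l1 and Sec14l5 carry in addition a PRELI domain, which in other proteins moves phospholipids between the mitochondrial membranes. Another CRAL-TRIO protein is the alpha-tocopherol transfer protein Ttpa, whose loss in humans causes vitamin E deficiency with loss of large sensory fibers.

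The libraries were alike in their totals. Values are FPKM (fragments scaled to the length of the transcript and to the mapped fragments of the library), so that levels can be set side by side between genes as well as between libraries. Summed over all genes, the libraries held 445647 to 482940 FPKM, and between 18279 and 18456 genes were above 0. The reads behind a single value were not derived here, because they depend on the gene length the authors used, so precision rests on there being 3 libraries a group. The tissue label was checked against its markers, and the 8 sensory neuron markers (among them Rbfox3, Tubb3, Prph, Avil and Scn10a) were above 0 in all 9 libraries and summed to between 4136 and 5292 FPKM. In whole ganglia, a change in the share of a cell type and a change in its RNA per cell cannot be told apart.

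In the RefSeq annotation of the rat, Sec14l4, Sec14l3 and Sec14l2 lie close together on chromosome 14, in the order Gal3st1, Sec14l4, Sec14l3, Mtfp1, Sec14l2, Rnf215. Sec14l1 and Sec14l5 lie apart from each other on chromosome 10. The promoters of Sec14l3 and Sec14l2 are shown because these related genes of chromosome 14 had the most and the least variable levels of the family. Each sequence runs 5′ to 3′ from 250 bases before the start of the gene to 50 bases after it, was taken from RefSeq with build GRCr8, and has its CG pairs in capitals. The Sec14l3 window is chr14:83168008-83168307 on the + strand and the Sec14l2 window is chr14:83217268-83217567 on the - strand.
Sec14l3: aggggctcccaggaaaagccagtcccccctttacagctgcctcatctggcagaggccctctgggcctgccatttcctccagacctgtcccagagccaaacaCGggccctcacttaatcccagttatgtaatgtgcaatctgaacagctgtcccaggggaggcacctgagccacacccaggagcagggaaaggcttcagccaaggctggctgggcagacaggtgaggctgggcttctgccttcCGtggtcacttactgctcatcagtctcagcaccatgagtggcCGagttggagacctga
Sec14l2: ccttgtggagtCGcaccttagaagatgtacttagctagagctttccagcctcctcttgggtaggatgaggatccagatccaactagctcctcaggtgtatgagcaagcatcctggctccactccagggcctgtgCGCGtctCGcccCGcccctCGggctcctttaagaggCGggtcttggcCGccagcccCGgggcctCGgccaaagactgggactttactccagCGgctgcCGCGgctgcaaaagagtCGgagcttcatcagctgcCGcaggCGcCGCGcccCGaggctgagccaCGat

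The windows differ in their CG pairs. Sec14l3 had 3 CG pairs, and 30.7% of 33469 rat promoters of this length had as few or fewer. Sec14l2 had 20 and Sec14l1 had 24, numbers that 77.4 and 83.4% of promoters did not exceed. Sec14l5 had 9 CG pairs, against a median of 7 over all promoters. Sec14l4 had no entry. Motifs were searched on both strands, namely the TATA box TATAAA, the CCAAT box CCAAT, the GC box GGGCGG, the AP-1 motif TGANTCA, the CRE motif TGACGTCA and the X-box core GTTGCC. None of the 6 was found in the Sec14l3 window. GGGCGG, held by 33.06% of all promoters, was found 4 times in Sec14l1 and once each in Sec14l2 and Sec14l5, and CCAAT, held by 37.49%, once in Sec14l5. The TATA box, the AP-1 motif, the CRE motif and the X-box core, held by 14.22, 7.329, 1.829 and 12.21% of promoters, were not found in any of the 4 windows.

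Sec14l3 (gene ID 64543) was the member with the greatest spread. It was at 0.61, 0.65 and 0.93 FPKM in the Sham libraries, at 0.22, 0.33 and 0.66 in the CPIP libraries and at 3.43, 6.33 and 9.08 in the CPIP+EA libraries. The CPIP+EA libraries all stood above the other 6, while the Sham and CPIP libraries overlapped. The group means were 0.730 ± 0.174, 0.403 ± 0.229 and 6.28 ± 2.83 FPKM (SD, n = 3 each). The mean of CPIP+EA was 15.6 times that of CPIP and 8.60 times that of Sham, and the lowest CPIP+EA library was still at 5.20 times the highest CPIP library. A low gene's change comes out smaller on the log2(FPKM + 0.5) scale, where the differences were 2.85 and 2.38. These differences are what the gene was chosen for, and they are given with no test. Groups that do not overlap were found for 8.23% of all 17187 genes tested between CPIP+EA and CPIP and for 16.2% between CPIP+EA and Sham. The highest library was at 41.3 times the lowest, and the CPIP+EA libraries alone spread by 2.65 times.

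Sec14l2 (gene ID 116486), which is related to Sec14l3 and separated from it by Mtfp1, was nearly level. The Sham libraries were at 16.02, 16.06 and 14.97 FPKM, the CPIP libraries at 14.88, 15.27 and 15.01, and the CPIP+EA libraries at 15.77, 16.06 and 14.59. All 3 groups overlapped, with means of 15.7 ± 0.618, 15.1 ± 0.199 and 15.5 ± 0.779 (SD, n = 3 each). The coefficient of variation over the 9 libraries was 3.75%, against 129% for Sec14l3.

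Sec14l4 (gene ID 498399), the remaining gene of the chromosome 14 group, was hardly detected. The Sham libraries held 0.10, 0.17 and 0.11 FPKM, the CPIP libraries 0.27, 0.10 and 0.12, and the CPIP+EA libraries 0.08, 0.23 and 0.35. The groups overlapped, and with values rounded to 2 decimals and this close to 0 a difference of this size was not detectable here. Sec14l2, Sec14l3 and Sec14l4 are related in sequence, and the way the authors assigned reads that match more than 1 gene is not given in the sources used here, so the split between them is uncertain. The 3 genes together summed to 16.73, 16.88 and 16.01 FPKM in the Sham libraries, to 15.37, 15.70 and 15.79 in the CPIP libraries, and to 19.28, 22.62 and 24.02 in the CPIP+EA libraries. The sum was thus higher in every CPIP+EA library than in the other 6, with a log2 difference of 0.47 from CPIP that is also a description, since it contains Sec14l3.

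**Figure D1:**
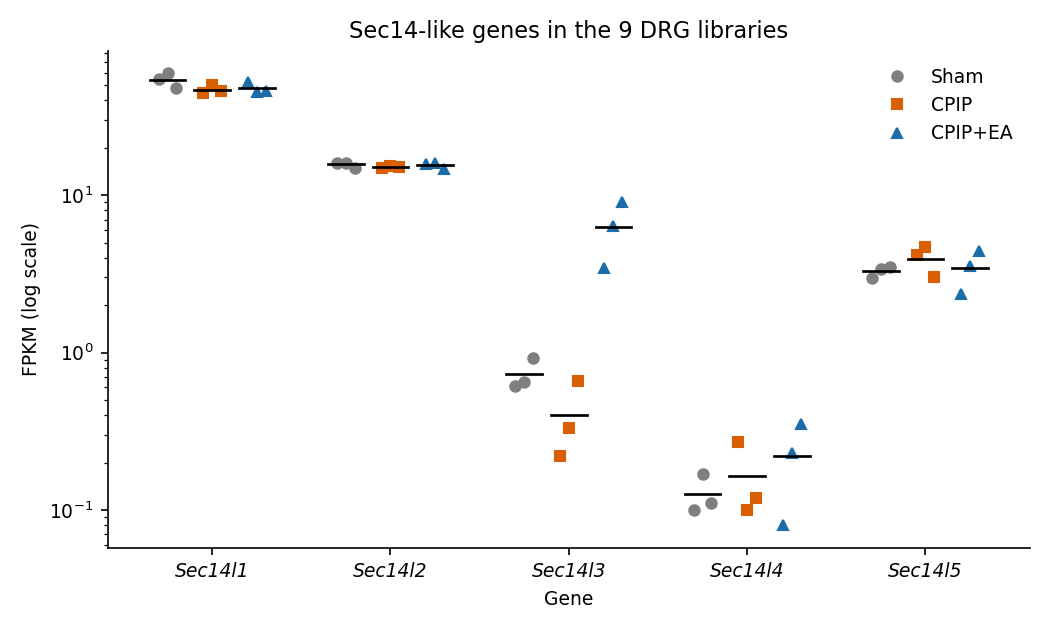
FPKM (log axis) of the 5 Sec14-like genes in each of the 9 libraries, by group. Points are libraries and bars are group means. Sec14l3 lies between 0.22 and 0.93 in Sham and CPIP and between 3.43 and 9.08 in CPIP+EA, while the groups of each of the other 4 genes overlap.

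Sec14l1 (gene ID 360668), the PRELI domain member also studied as a regulator of the RNA sensor RIG-I, had the highest level of the family. The Sham libraries held 54.54, 59.40 and 47.91 FPKM, the CPIP libraries 44.40, 49.96 and 46.01, and the CPIP+EA libraries 52.14, 45.10 and 45.64. The lowest Sham library lay within the range of both other groups, whose means of 46.8 ± 2.86 and 47.6 ± 3.92 were below that of Sham at 54.0 ± 5.77 (SD, n = 3 each). Sec14l5 (gene ID 287060), the other PRELI domain member, was at 2.99, 3.39 and 3.52 FPKM in the Sham libraries, 4.15, 4.66 and 3.04 in the CPIP libraries and 2.34, 3.57 and 4.42 in the CPIP+EA libraries. Its 3 groups overlapped, and the lowest and the second highest of all 9 values were both CPIP+EA libraries. The coefficient of variation over the 9 libraries was 20.8%.

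The order of the levels was the same in Sham and CPIP, with Sec14l1 highest, then Sec14l2, Sec14l5, Sec14l3 and Sec14l4. In CPIP+EA, Sec14l3 stood above Sec14l5. Sec14l1 and Sec14l2 were apart from each other and from the rest in every library of every group. Within a library, Sec14l3 was at 0.0530 to 0.264 times Sec14l5 in the 6 Sham and CPIP libraries, and at 1.47, 1.77 and 2.05 times in the CPIP+EA libraries, although the ranges of these 2 genes in CPIP+EA overlapped. Sec14l3 and Sec14l4 overlapped in CPIP alone, where Sec14l4 in replicate 1 at 0.27 was above Sec14l3 at 0.22. As a share of the summed FPKM of the 5 genes, Sec14l3 made up 0.344 to 1.38% in Sham and CPIP and 4.65, 8.88 and 12.3% in CPIP+EA.

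The comparison of CPIP with Sham asks what the ischemia model changes in the ganglion. A gene counted as changed (called) if limma's Benjamini-Hochberg adjusted p over 17187 genes was below 0.01 and its level differed 1.5-fold or more in either direction. None of the 4 members other than Sec14l3 passed, and 0 of the 4 had an unadjusted p under 0.05, against 0.355% of all genes tested that passed and 8.66% with an unadjusted p under 0.05. The Sham and CPIP libraries overlapped for each of the 5 members, while 15.9% of all genes tested had groups that did not overlap. Sec14l1 differed by -0.20 log2 units (SE 0.092, 95% interval -0.41 to 0.0076, limma adjusted p = 0.605). Sec14l3 differed by -0.47, with no test, since its CPIP libraries took part in its choice. The size of the Sec14l3 difference depended on the pseudocount, with -0.80 for a pseudocount of 0.1 and -0.31 for 1, and it was -0.32 without CPIP replicate 1 and -0.66 without CPIP replicate 3. Sec14l2 differed by -0.057 (interval -0.19 to 0.082), Sec14l4 by 0.075 (-0.30 to 0.45) and Sec14l5 by 0.21 (-0.26 to 0.68). The median over these 4 members was 0.0090, and over all genes tested -0.0064.

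The comparison of CPIP+EA with CPIP asks what electroacupuncture changes in rats with the model. None of the 4 members other than Sec14l3 passed the threshold, and 0 of the 4 had an unadjusted p under 0.05. The limma adjusted p was 0.996 for each of the 4. As background, 0% of all 17187 genes tested passed, and 4.29% had an unadjusted p under 0.05. The study reported changed genes both up and down for this comparison at the same threshold, by a test that its methods do not name. Sec14l1 differed by 0.024 log2 units (95% interval -0.18 to 0.23), Sec14l2 by 0.037 (-0.10 to 0.18), Sec14l4 by 0.11 (-0.26 to 0.48) and Sec14l5 by -0.19 (-0.66 to 0.28). The interval of Sec14l2 corresponds to between 0.933 and 1.13 times the CPIP level, and that of Sec14l5 to between 0.631 and 1.21 times, so a moderate change of Sec14l5 could have been missed. The median over these 4 members was 0.031, and over all genes tested 0.012.

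In CPIP+EA against Sham, which shares its libraries with the preceding comparisons, none of the 4 members other than Sec14l3 passed, while 0.483% of all genes tested did, and 0 of the 4 had an unadjusted p under 0.05, against 12.2% of all genes. Sec14l1 differed by -0.18 log2 units (SE 0.092, 95% interval -0.38 to 0.031, limma adjusted p = 0.495). Sec14l2 differed by -0.019 (-0.16 to 0.12), Sec14l4 by 0.18 (-0.19 to 0.56) and Sec14l5 by 0.020 (-0.45 to 0.49). Without Sham replicate 2, which had the highest Sec14l1 level, the difference of Sec14l1 was -0.10 here and -0.13 between CPIP and Sham.

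**Figure D2:**
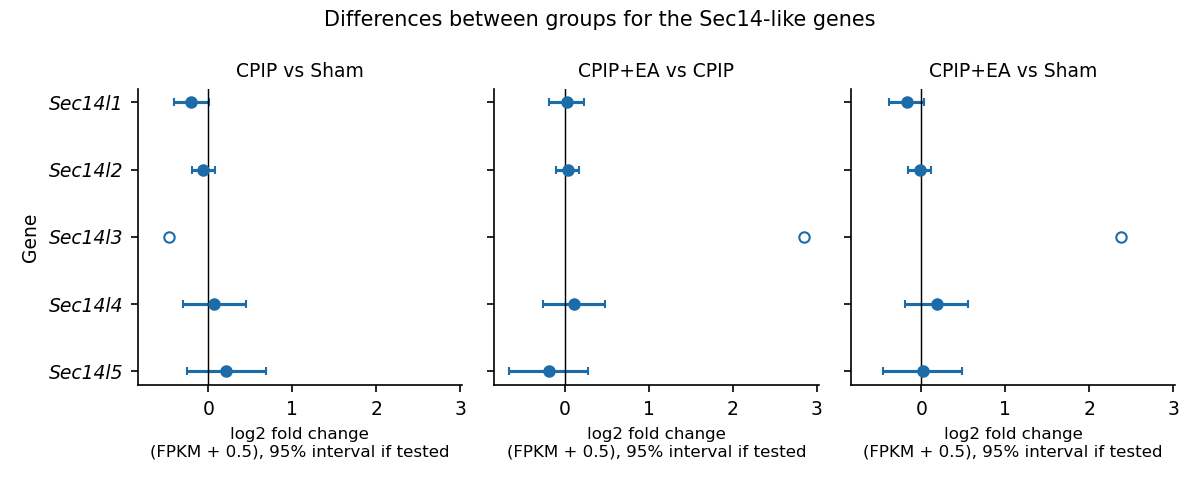
Differences of the 5 genes on the log2(FPKM + 0.5) scale in the 3 comparisons, with 95% intervals from limma for the values tested and open circles without intervals for Sec14l3, which was chosen on these libraries. Every interval drawn includes 0, and the open circles lie at -0.47 (CPIP against Sham), 2.85 (CPIP+EA against CPIP) and 2.38 (CPIP+EA against Sham).

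The genes around Sec14l3 were read in the same libraries. Mtfp1, a mitochondrial fission protein that lies between Sec14l3 and Sec14l2, was at 2.34, 1.15 and 1.62 FPKM in the Sham libraries, 1.64, 1.44 and 1.47 in the CPIP libraries and 1.41, 1.51 and 1.61 in the CPIP+EA libraries. Its CPIP+EA libraries fell within the range of Sham, and its log2 difference from CPIP was -0.0046 (SE 0.18, limma adjusted p = 0.999). Gal3st1, the sulfotransferase that makes the myelin lipid sulfatide, lies beyond Sec14l4 and was at 7.97, 7.80 and 11.32 FPKM in CPIP+EA against 9.93, 8.33 and 7.62 in CPIP, with a log2 difference of 0.051 (SE 0.16, limma adjusted p = 0.996). Rnf215, a RING finger gene beyond Sec14l2, was at 15.04, 14.26 and 16.30 in CPIP+EA against 15.55, 13.84 and 15.60 in CPIP, with a log2 difference of 0.019 (SE 0.088, limma adjusted p = 0.996). The groups of all 3 neighbours overlapped. The neighbours of the other members were likewise not called, namely Mgat5b and Septin9 beside Sec14l1, and Nagpa and Ppl beside Sec14l5. Ppl, the cornified envelope protein periplakin, had the smallest unadjusted p of these, 0.0400 in CPIP against Sham, with a log2 difference of -0.41 and a limma adjusted p of 0.536.

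**Figure D3:**
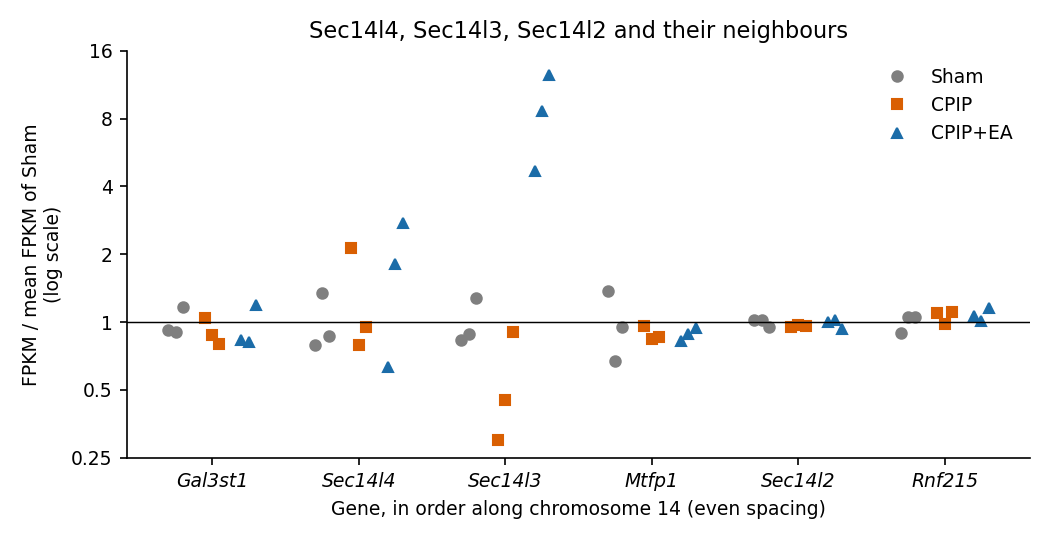
FPKM of Gal3st1, Sec14l4, Sec14l3, Mtfp1, Sec14l2 and Rnf215 divided by the gene's mean in Sham (log axis), in their order on chromosome 14 with even spacing. Points are the 9 libraries, coloured by group. Of these 6 genes, the CPIP+EA libraries stand apart from the others for Sec14l3, and the groups of the other 5 overlap.

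Markers of the cell types that the ganglion could hold were read in the same libraries. None of the marker genes was called in any comparison, against 0.355%, 0% and 0.483% of all genes tested for CPIP against Sham, CPIP+EA against CPIP and CPIP+EA against Sham. The 6 neutrophil markers tested (among them S100a8 and S100a9) all had log2 differences above 0 between CPIP+EA and CPIP, with a median of 0.75. The summed FPKM of the neutrophil list was 51.39 to 151.53 in Sham, 33.82 to 263.44 in CPIP and 66.95 to 625.03 in CPIP+EA. The 4 erythroid markers tested were also all above 0, with a median of 0.84 and sums of 245.82 to 799.66 in CPIP and 250.16 to 2360 in CPIP+EA. The 6 Schwann cell markers were all below 0 with a median of -0.46, and their sums were 6743 to 12034 in CPIP and 4728 to 9421 in CPIP+EA. The 4 fibroblast markers were also all below 0, with a median of -0.29 and sums of 653.51 to 861.87 in CPIP and 428.20 to 880.89 in CPIP+EA. The 4 markers of central glia tested, namely Gfap, Mog, Mobp and Aqp4, were all above 0 with a median of 0.35, and their list was the one of these whose sums did not overlap, at 8.92 to 12.69 in CPIP and 12.78 to 20.85 in CPIP+EA, while Sham was at 9.71 to 14.22. These CPIP and CPIP+EA ranges nearly met, at 12.69 and 12.78, and 8.23% of all genes tested had groups that did not overlap in this comparison. Most of the sum was Gfap, so the sum was mainly a reading of that gene, and the cells that held it were not tested. The part of these lists in the level of Sec14l3 was not tested. Among the CPIP+EA libraries, Sec14l3 at 3.43, 6.33 and 9.08 FPKM stood in the same order as the neutrophil sums of 66.95, 172.63 and 625.03 and the erythroid sums of 250.16, 899.41 and 2360. The first of these libraries had neutrophil and erythroid sums within the ranges of CPIP. The CPIP+EA libraries stood in this order also for the Schwann cell sums of 4728, 6986 and 9421 and the endothelial sums of 40.36, 40.51 and 58.22. In CPIP the order differed, with Sec14l3 at 0.22, 0.33 and 0.66 FPKM against neutrophil sums of 156.11, 263.44 and 33.82. Over the 9 libraries, Pearson's r of Sec14l3 with the neutrophil sum was 0.41 and Spearman's rho 0.17, with no test. Markers of ciliated cells, the cells of the airway and olfactory epithelium among them, were at a low sum of 9.39 to 11.56 FPKM in all 9 libraries once Tppp3, which the ganglion itself expresses at a high level, was left out, and 5 of the 13 others tested were above 0 between CPIP+EA and CPIP, with a median of -0.0026.

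None of the relations of Sec14l5 to the marker lists across the libraries passed the adjusted threshold of 0.05. Its lowest value, 2.34 FPKM, was in CPIP+EA replicate 1, which had the lowest Schwann cell sum of 4728. Its highest, 4.66 FPKM, was in CPIP replicate 2, with a Schwann cell sum of 11066 and a neutrophil sum of 263.44. Over the 9 libraries, Pearson's r with the Schwann cell sum was 0.849 (exact permutation p = 0.00444, adjusted p = 0.0976 over 44 relations of the 4 members other than Sec14l3 with 11 lists) and Spearman's rho 0.700 (exact permutation p = 0.0433, adjusted p = 0.381). With CPIP replicate 3 and CPIP+EA replicate 1 left out, r was 0.625, and within the groups, on deviations from the group means, it was 0.929. With the neutrophil sum, r was 0.793 (exact permutation p = 0.0113, adjusted p = 0.165), rho 0.883 (exact permutation p = 0.00308, adjusted p = 0.0677) and r within the groups 0.954. For the satellite glia, skeletal muscle, erythroid and sensory neuron sums, r was 0.731, 0.727, 0.689 and -0.622, with adjusted p of 0.221, 0.221, 0.246 and 0.331 (exact permutation tests), and r within the groups was 0.842, 0.738, 0.946 and -0.841. Without CPIP replicate 3 and CPIP+EA replicate 1, r with the erythroid sum was 0.371. Sec14l2 had the strongest relation of the 44, with the endothelial sum, at r of -0.918 (exact permutation p = 0.00127, adjusted p = 0.0558) and rho of -0.921 (exact permutation p = 0.00103, adjusted p = 0.0451, or 0.0564 with the 11 untested relations of Sec14l3 counted among 55, both counts of relations being set after seeing the data), and r was -0.885 without Sham replicate 3 and CPIP+EA replicate 3 and -0.950 within the groups. No other relation had an adjusted p under 0.05 by either measure.

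**Figure D4:**
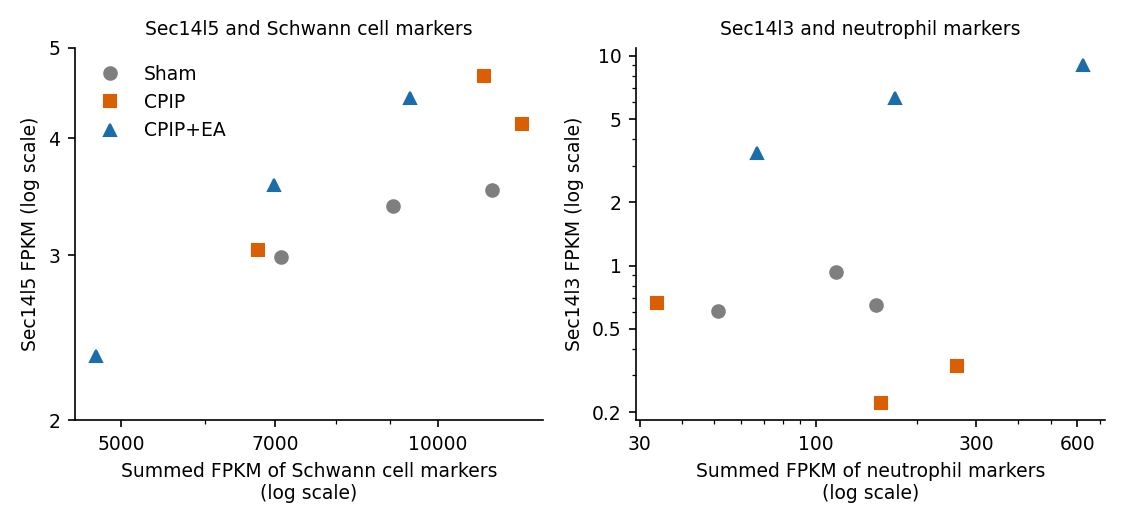
FPKM of Sec14l5 against the summed FPKM of the Schwann cell markers (left) and of Sec14l3 against that of the neutrophil markers (right), on log axes, with 1 point for each of the 9 libraries, coloured by group. Sec14l5 is lowest at 2.34 FPKM in the library with the lowest Schwann cell sum, 4728, and Sec14l3 is above 3 FPKM in the CPIP+EA libraries across neutrophil sums from 66.95 to 625.03.

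For each member but Sec14l4, whose mean FPKM was below 1, the most alike genes were ranked by Pearson's r of log2(FPKM + 0.5) over the 9 libraries. They were taken from the 13913 genes whose mean FPKM reached 1, as a description. For Sec14l3 these were Rheb (r = 0.935), Rnf113a2 (0.932), Gtf2e2 (0.919), Mtmr12 (0.917) and Eif2d (0.915). They followed Sec14l3 closely but not exactly in order, with Spearman's rho between 0.88 (Mtmr12) and 0.95 (Rnf113a2), and they did not follow it in size. Rheb, the small GTPase that activates mTORC1, had means of 109.6 ± 2.58, 109.6 ± 0.255 and 118.2 ± 1.96 FPKM (SD, n = 3 each), and its highest library was at 1.12 times its lowest. Without CPIP+EA replicates 2 and 3, r of Rheb was 0.882. For Sec14l5 the most alike were the kinases Akt2 (0.972) and Prkcq (0.965) and the secreted BMP antagonist Sostdc1 (0.957). For Sec14l1 they were Ipo9 (0.964), Zfp385d (0.946) and Trmt5 (0.946), and for Sec14l2 Susd1 (0.947), Mapk9 (0.944) and Lca5 (0.944). Among the members themselves, r ranged from -0.52 (Sec14l2 with Sec14l5) to 0.66 (Sec14l1 with Sec14l2). Sec14l3 had an r of 0.46 with Sec14l4, its neighbour, and of 0.0083 with Sec14l2.

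Other genes of lipid transfer were read from 6 lists. No gene of any list was called in any of the 3 comparisons, against 0.355% (CPIP and Sham), 0% (CPIP+EA and CPIP) and 0.483% (CPIP+EA and Sham) of all genes tested, shares at which few or none of these genes would be called. The lists held 19 CRAL-TRIO genes, 4 PRELI genes, 10 phosphatidylinositol transfer and kinase genes, 19 cholesterol synthesis genes, 11 vitamin E handling genes and 10 fatty acid and retinoid binding genes tested. Of the 21 CRAL-TRIO genes listed, 20 were in the table, and 1 of these and 2 of the 12 fatty acid and retinoid binding genes were too low to be tested. Between CPIP+EA and CPIP, the CRAL-TRIO genes had 9 differences above 0 and 10 below, with a median of -0.010 against 0.012 over all genes tested. Ttpa was low, with means of 0.283 ± 0.0321, 0.257 ± 0.136 and 0.253 ± 0.246 FPKM in Sham, CPIP and CPIP+EA (SD, n = 3 each). The differences ranged from Rlbp1, the retinaldehyde-binding protein, at -0.15 log2 units to Mcf2, an exchange factor for small GTPases, at 0.19, and 0 of 19 had an unadjusted p under 0.05, against 4.29% of all genes tested. The 4 PRELI genes had a median of 0.11, between Prelid3b at 0.047 and Prelid2 at 0.31, with Prelid1, which carries phosphatidic acid in the mitochondrion, at 0.073. The phosphatidylinositol genes had a median of -0.023, from Pitpnm2 at -0.31 to Pi4k2b at 0.15, with Pitpna at 0.068, and Pitpnm2 alone had an unadjusted p under 0.05 (0.0479, with a limma adjusted p of 0.996).

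The cholesterol synthesis genes, on whose pathway Sec14l2 acts in the test tube, had log2 differences above 0 for 18 of 19 between CPIP and Sham, with a median of 0.11 against -0.0064 over all genes, and for 17 of 19 with a TPM scale or quantile normalization. None was called, against 0.355% of all genes tested, and 5 of 19 had an unadjusted p under 0.05, against 8.66% of all genes, among them Mvd, Mvk, Hmgcs1 and Msmo1, named after their values were seen. Mvd, the mevalonate decarboxylase, differed by 0.39 on the log2 scale, with 0.0787 as its limma adjusted p. For CPIP+EA against CPIP the median was 0.015, with 11 above 0 and 8 below, and it lay below 0 (-0.0046 and -0.0048) on those other scales. The values ran from Idi1 at -0.20 to Lss at 0.15, and 0 of 19 had an unadjusted p under 0.05. Sqle, the squalene monooxygenase that Sec14l2 stimulates, had means of 69.6 ± 1.33, 70.9 ± 1.58 and 75.1 ± 5.84 FPKM in Sham, CPIP and CPIP+EA (SD, n = 3 each), and a log2 difference of 0.079 between CPIP+EA and CPIP.

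The vitamin E handling genes had a median of -0.040 between CPIP+EA and CPIP. Npc2, a lysosomal cholesterol carrier, was the highest at 0.098, and Lpl, the lipoprotein lipase, the lowest at -0.70, with means of 6.64 ± 2.46 FPKM in CPIP and 3.88 ± 1.55 in CPIP+EA. Lpl (0.0441) and Lrp1 (0.00426), the latter named after its value was seen, had an unadjusted p under 0.05, each with a limma adjusted p of 0.996. The fatty acid and retinoid binding genes had 9 of 10 differences above 0 and a median of 0.17, and 8 and 7 of 10 above 0 with a TPM scale and quantile normalization. Fabp1, the liver fatty acid-binding protein, was listed at 0 in all 3 Sham libraries, while the CPIP libraries held 0.12, 0.13 and 0 FPKM and the CPIP+EA libraries 0.49, 0.62 and 1.37. It passed the filter on low values through its CPIP+EA libraries, so no test of it is given, although it is one of the 9. Fabp12 also passed through these libraries, where its mean was 0.163 FPKM. Its Sham mean (0.0767) and its CPIP mean (0.0867) were below the filter's 0.1. Fabp12 is another of the 9, and its log2 difference of 0.18 lies next to the median. The count and the median of this list are thus partly set by the filter, and are given as a description. Fabp7, the satellite glia fatty acid-binding protein, had an unadjusted p of 0.0148 and a limma adjusted p of 0.996, and was named after its value was seen.

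**Figure D5:**
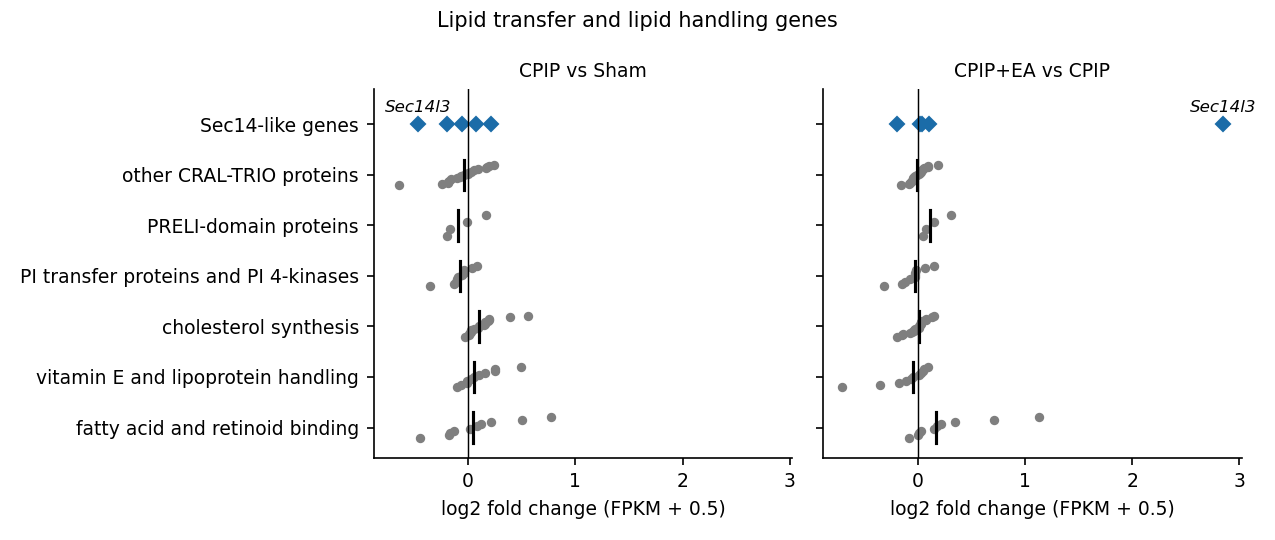
Log2 differences, on the log2(FPKM + 0.5) scale, of the genes of the 6 lists (points, with a bar at each list's median) and of the Sec14-like genes (diamonds), between CPIP and Sham (left) and between CPIP+EA and CPIP (right). On the right, the medians of the lists lie between -0.040 and 0.17, Fabp1 is at 1.14, Lpl at -0.70 and Sec14l3, chosen on this difference, at 2.85.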

How the data were processed

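RNA-Seq was carried out on a BGISEQ-500 with single-end 50 base reads. The authors filtered raw reads with SOAPnuke 1.5.2 and deposited FPKM per gene and library with 2 decimals. The aligner, the genome build and the annotation are not given in the sources used here. The authors also deposited log2 ratios, P-values and Q-values of each pair of groups in 9 columns, which were not used. Read counts were not used here.

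FPKM of genes with a mean of at least 0.1 over the 9 libraries (17187 genes, all 5 members included) were put on the log2(FPKM + 0.5) scale and tested two-sided in limma 3.58.1 (R 4.3.3) with a mean-variance trend and no covariate, with the 9 libraries in 1 fit. The threshold for a call is the study's, but the study does not name the test behind its Q-values. Counts of called genes are therefore not comparable with those of the study, which reported more. The fit was tested on simulated data first. The limma p-values set a group difference against the spread between these libraries within groups, pooled over the groups and moderated across genes. Exact permutation tests over all orders of the 9 libraries were run in numpy 2.4.6 (Python 3.11.15). Ranks, Spearman's rho and the adjustment of permutation p-values came from scipy 1.17.1. Tables were made in pandas 2.3.3 and plots in matplotlib 3.10.9. Gene IDs were matched to RefSeq (18746 of 20413, and 5 of 5 members), and 4 of 5 promoters were found.

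The members and lists were chosen with earlier results of these data known. Named were the members, their neighbours, the genes most like them, the genes of each list with the highest and lowest difference between CPIP+EA and CPIP, and Ttpa, Sqle, Pitpna and Prelid1. Some of these genes are not reported here. The alternatives were other pseudocounts, filters, scalings, variance models and thresholds, the replicate number as a block, only the 2 groups compared, each library left out, and the summed FPKM of Sec14l2, Sec14l3 and Sec14l4.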

Additional observations from a re-analysis of the deposited data

How the results depend on the processing

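In each of the 3 comparisons, 0 of the 4 members other than Sec14l3 were called under each of 19 alternatives. Sec14l3 was given as a description and was not counted. The log2 difference of Sec14l3 between CPIP+EA and CPIP was 3.65 with a pseudocount of 0.1, and that of the summed FPKM of Sec14l2, Sec14l3 and Sec14l4 was 0.47 there, 0.39 between CPIP+EA and Sham and -0.080 between CPIP and Sham, by the construction of the sum. With each library left out in turn, the Sec14l3 difference ranged from 2.55 to 3.19. Some small differences of the other members changed sign, and the cause was not tested. With each library left out, Sec14l4 between CPIP and Sham ranged from -0.037 (without CPIP replicate 1) to 0.14. Between CPIP+EA and CPIP, Sec14l1 ranged from -0.042 (without CPIP+EA replicate 1, and -0.013 without CPIP replicate 1) to 0.072, Sec14l4 from -0.019 (without CPIP+EA replicate 3) to 0.26, and Sec14l5 from -0.37 to 0.026 (without CPIP+EA replicate 1). Between CPIP+EA and Sham, Sec14l2 ranged from -0.051 to 0.021 (without CPIP+EA replicate 3), and Sec14l5 from -0.16 (without CPIP+EA replicate 3) to 0.24, with -0.040 without Sham replicate 1, -0.021 without CPIP+EA replicate 2 and -0.0098 on a TPM scale. Sec14l4 could not be tested with a mean FPKM of at least 1.

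Over all genes, 61 were called between CPIP and Sham, and 26 to 102 under the alternatives. Between CPIP+EA and CPIP the count was 0, and 0 to 2 under the alternatives. Between CPIP+EA and Sham it was 83, and 35 (without CPIP+EA replicate 2) to 163 (at an adjusted p under 0.05). Libraries with the same replicate number did not deviate together, with r of -0.24 to 0.30 over 9 pairs and 2 of them over 0.1, and in 4 of 18 matches a library was closest to its own number. With the replicate number as a block, 26, 0 and 42 genes were called. In this balanced design a block cannot move a group difference. Values near 0 in 2-decimal FPKM limit what can be said of Sec14l4.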
